A study of Mus musculus with 24 samples.

Results

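The kynurenine route and the synthesis of nicotinamide adenine dinucleotide (NAD) are described here through 10 genes of 15323 in the deposited table. These are Ido2, Tdo2, Afmid, Kmo, Kynu, Haao, Acmsd, Qprt, Nadsyn1 and Nampt, and each was found by its symbol in the GENCODE vM21 annotation of GRCm38. The members were selected on their liver values across the genotypes, so these values are given as a description, with no p-value for any of the 10. The study crossed 2 nuclear genomes with 2 mitochondrial genomes (mtDNA), to ask what a mismatch between them changes. Genotype names give the nuclear genome before the colon and the mtDNA after it. BL/6J:C57 (C57BL/6 nucleus, C57 mtDNA) and NZB:NZB are the parental lines. BL/6J:NZB and NZB:C57 are conplastic lines, in which backcrossing over 10 generations joined the nuclear genome of one strain to the mtDNA of the other. All mice were untreated males aged 10 weeks. Each of the 24 libraries (4 genotypes, liver median lobe or left ventricle of the heart, 3 libraries a group) was made from polyadenylated RNA of a pool of 4 animals, so the SD and every p-value measure the spread between pools. A liver pool and a heart pool of one genotype may come from the same mice. The titles of libraries with the BL/6J nucleus say mix and those with the NZB nucleus say rep, and effects of any handling behind these words and of the nucleus cannot be told apart.

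Hepatocytes take up most dietary tryptophan that is not used for protein. Tdo2 or the indoleamine dioxygenases open its ring, Afmid releases kynurenine, Kmo hydroxylates it at the outer mitochondrial membrane, Kynu splits off alanine, and Haao makes the unstable semialdehyde that either closes to quinolinate or is taken by Acmsd towards complete oxidation. Qprt turns quinolinate into nicotinic acid mononucleotide, whose dinucleotide is amidated to NAD by Nadsyn1. Most other tissues rebuild NAD from nicotinamide, and Nampt catalyses the slow step of that salvage.

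Values are read counts normalised by the authors. Liver libraries held 7294525 to 34974268 recovered reads and heart libraries 3714278 to 12949956. Hepatocyte marker sums (7 of 8 genes in the table) were 110907 to 123177 in BL/6J livers, 178478 to 183306 in NZB:NZB and 199845 to 220069 in NZB:C57 livers, and 14.8 to 192.6 in hearts. Cardiomyocyte marker sums (6 of 6 genes) were 22211 to 35787 in the hearts of 3 genotypes and 214354 to 218025 in NZB:C57 hearts. In livers they were 0.223 to 0.936 with the BL/6J nucleus, 38.6 to 130.5 in NZB:NZB and 0.314 to 124 in NZB:C57. One value bears on the mtDNA labels. Gm13340, a gene model that shares 45.2% of its 31-base words with the mitochondrial mt-Co1, was low in BL/6J:C57 (0.438 to 0.725 in liver, 1.09 to 1.48 in heart). In BL/6J:NZB it was at 8.42 to 25.2 in liver and 65.9 to 109.7 in heart. It reached 6.79 to 15.6 in livers and 19.4 to 28.4 in hearts labelled NZB:C57, which are listed with the mtDNA of BL/6J:C57. In NZB:NZB it was at 15.8 to 18.004 in liver and 33.3 to 39.2 in heart. The mtDNA of these libraries was not tested here, and every NZB:C57 result below is that of the libraries so labelled.

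The 10 genes lie on 8 chromosomes of GRCm38. Ido2 spans 24531892 to 24576333 on chromosome 8 (minus strand), Tdo2 spans 81957090 to 81976202 on chromosome 3 (minus), and Afmid spans 117825924 to 117839908 on chromosome 11 (plus). Kmo and Acmsd share chromosome 1, at 175620381 to 175662116 and 127729413 to 127767978, both on the plus strand. Kynu is at 43555329 to 43682715 on chromosome 2 (plus) and Haao at 83831156 to 83847963 on chromosome 17 (minus). Qprt and Nadsyn1 share chromosome 7, at 127107114 to 127122226 and 143795584 to 143822849, both on the minus strand, and Nampt is at 32819545 to 32853349 on chromosome 12 (plus). All are protein coding, and a value counts reads over the whole gene. The level of Afmid is uncertain, since 44.9% of its 31-base words occur in other genes, foremost in Gm20708, which overlaps it on the same strand and stood at 0 to 4.68 in livers. Exons of Afmid also overlap the antisense gene Tk1, which stood at 16.2 to 32.7 in livers and 2.65 to 4.93 in hearts. Acmsd overlaps the antisense gene 2900009J06Rik, and use of strand in the counting was not given in the sources used here. Shared words made up 5.75% for Qprt and at most 4.43% for the other 8 genes.

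RefSeq (GRCm38.p6) gave the bases from 250 before to 50 after the start site for 8 of the 10 genes, leaving out Ido2 and Kynu. Shown here are 4 of them, for 2 genes that were higher (Haao, Qprt) and 2 that were lower (Kmo, Nampt) in NZB:C57 than in NZB:NZB livers. They come from chr17:83846741-83847040 (minus strand), chr7:127121980-127122279 (minus), chr1:175631943-175632242 (plus) and chr12:32820085-32820384 (plus). Capitals mark matches, on either strand, to GGTCAAA (a nuclear receptor half-site) or GGGCGG (a GC box). The motifs were chosen after values and sequences had been seen.
Haao: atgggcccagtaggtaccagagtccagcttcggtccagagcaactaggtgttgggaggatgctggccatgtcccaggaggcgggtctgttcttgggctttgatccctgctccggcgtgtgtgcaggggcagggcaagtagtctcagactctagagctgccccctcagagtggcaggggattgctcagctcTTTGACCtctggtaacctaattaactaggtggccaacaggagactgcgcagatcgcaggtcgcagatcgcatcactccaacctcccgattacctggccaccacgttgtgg
Qprt: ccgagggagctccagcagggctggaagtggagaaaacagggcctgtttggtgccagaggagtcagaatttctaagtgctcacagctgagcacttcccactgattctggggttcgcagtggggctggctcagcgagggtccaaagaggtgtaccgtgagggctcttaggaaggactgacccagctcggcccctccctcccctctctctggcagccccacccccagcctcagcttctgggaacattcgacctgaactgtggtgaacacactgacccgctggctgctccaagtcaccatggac
Kmo: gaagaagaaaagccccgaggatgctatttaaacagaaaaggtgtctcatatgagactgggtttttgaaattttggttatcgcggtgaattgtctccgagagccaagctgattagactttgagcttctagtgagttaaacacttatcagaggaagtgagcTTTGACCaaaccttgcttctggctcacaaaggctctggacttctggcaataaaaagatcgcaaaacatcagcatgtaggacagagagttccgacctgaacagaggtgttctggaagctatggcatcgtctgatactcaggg
Nampt: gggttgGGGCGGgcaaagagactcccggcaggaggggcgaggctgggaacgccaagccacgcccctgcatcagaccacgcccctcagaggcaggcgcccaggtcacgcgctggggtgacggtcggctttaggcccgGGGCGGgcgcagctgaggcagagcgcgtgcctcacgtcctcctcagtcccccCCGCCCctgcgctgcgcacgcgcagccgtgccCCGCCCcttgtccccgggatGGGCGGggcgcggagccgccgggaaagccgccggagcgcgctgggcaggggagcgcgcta
GGTCAAA, read as TTTGACC, was found in Haao and Kmo, with its first base 60 and 91 bases before the start site, and also in Acmsd, 234 bases before it. Of 32851 RefSeq promoters of this length, 2.53% hold it. GGGCGG occurs 5 times in Nampt, 2 times in Nadsyn1 and 1 time in Afmid (35.7% of promoters), TATAAA in Tdo2 alone, 229 bases before its start (13.6%), and CACGTG in none of the 8 (7.15%). No motif overlaps another. G and C made up 76.3% of the Nampt stretch, 60.3% of Qprt, 58.7% of Haao and 44.3% of Kmo, against a median of 52.7%. Such matches describe letters only. Genes that were higher and genes that were lower both hold GGTCAAA, and Qprt holds none of the 4 motifs.

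Per kilobase of exon, Tdo2 was the most abundant of the 10 transcripts in liver, at 484 ± 102 (SD, n = 12 libraries). Haao (101 ± 28.2) and Kmo (91.4 ± 30.4) followed, then Qprt (59.97 ± 25.9), Ido2 (50.5 ± 45.7), Afmid (45.8 ± 5.22) and Kynu (36.6 ± 6.98). The low end was Nampt (13.3 ± 2.82), Nadsyn1 (8.60 ± 0.773) and Acmsd (7.77 ± 2.28). Of neighbours in this order, Haao and Kmo, Qprt and Ido2, Ido2 and Afmid, and Nadsyn1 and Acmsd differed by less than the larger of their SDs. The order depended on genotype. In NZB:NZB livers, Ido2 (21.4 per kilobase) and Qprt (25.0) stood below Kynu (28.4) and Afmid (40.8). In NZB:C57 livers, Ido2 (126) and Qprt (94.4) stood above Kmo (52.2), Kynu (46.5) and Afmid (44.0).

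**Figure D1:**
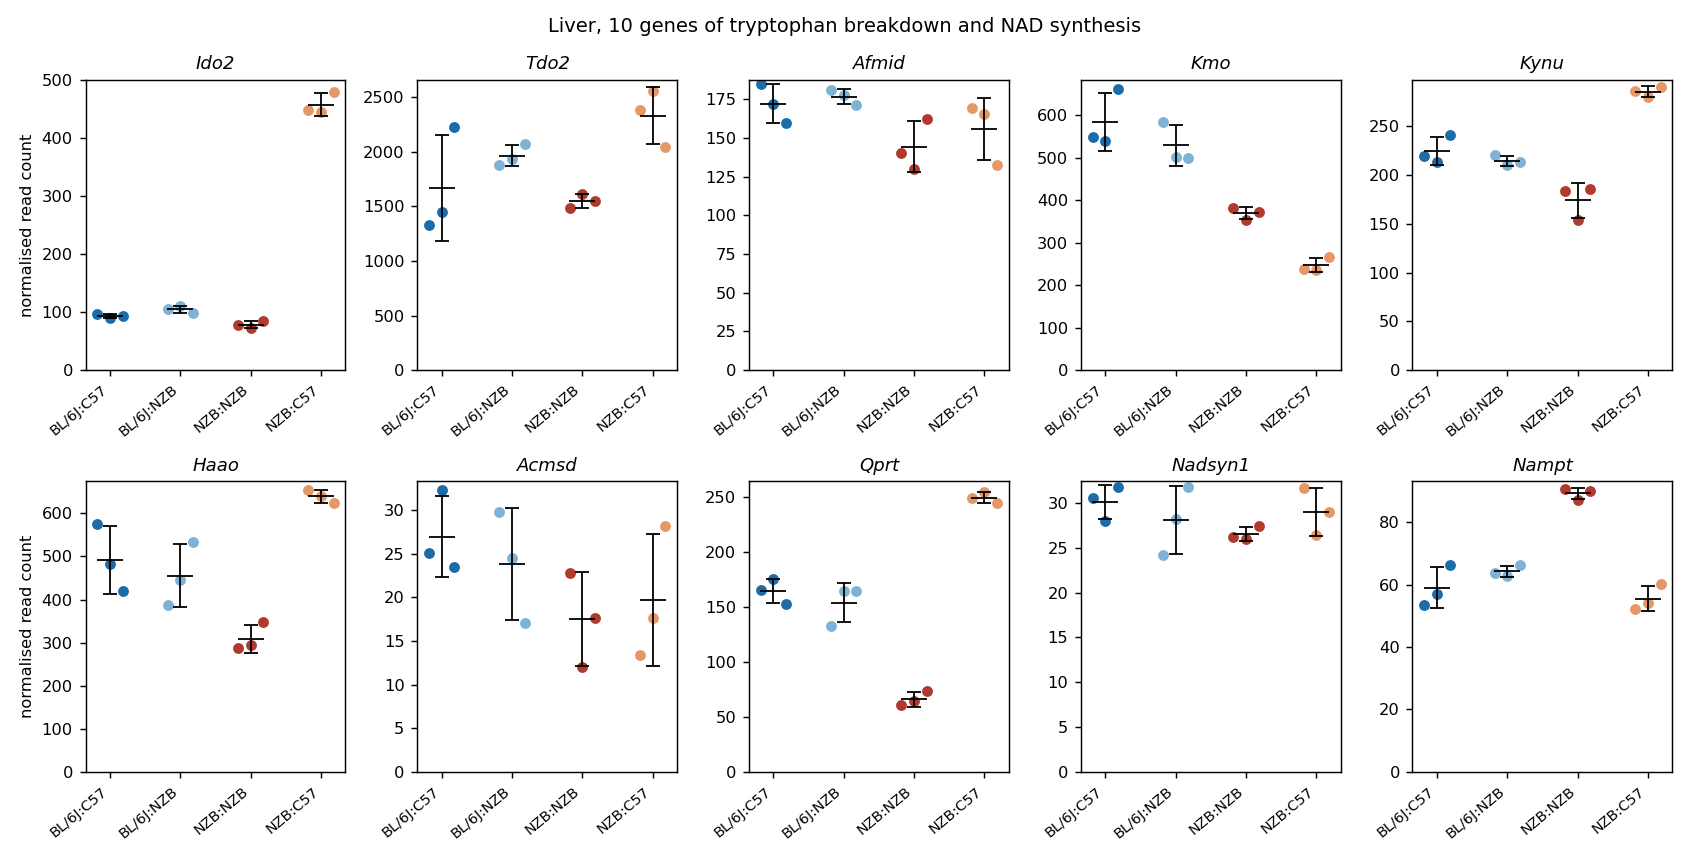
Normalised read count (vertical axis, linear, from 0) of each of the 10 genes in the 12 liver libraries, by genotype. Points are pools and bars the mean and SD of 3 pools. The NZB:C57 points of Ido2, from 445 to 480.4, stand above every other liver, and those of Kmo, from 236 to 266, below every other liver.

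With the NZB nucleus, livers on C57 mtDNA had more transcript of 5 of the 10 genes than livers on NZB mtDNA, and less of 2. Ido2, Qprt, Haao, Kynu and Tdo2 were higher in NZB:C57, from 5.88 times for Ido2 to 1.504 times for Tdo2, and Nampt and Kmo were lower. Thus 7 of 10 passed the threshold (adjusted p under 0.05, limma), where 8.09% of the 13159 genes tested in liver did (3.65% higher, 4.44% lower). The same 7 had no overlap between the groups, against 26.5% of all genes. These liver levels chose the genes, so nothing is read from the counts. The median log2 fold change of the 10 was 0.36, beside -0.00282 over all genes. In whole liver, fewer cells of a type and less RNA per cell cannot be told apart.

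Ido2, a relative of the indoleamine dioxygenase Ido1 that opens the tryptophan ring, changed most. It was at 97.5, 89.4 and 93.1 in the 3 BL/6J:C57 livers, at 106, 111 and 97.7 in BL/6J:NZB, at 77.3, 72.2 and 84.2 in NZB:NZB, and at 448, 445 and 480.4 in NZB:C57. All NZB:C57 livers were thus far above the other 9, which lay close together. The log2 fold change on log2(value + 1), the scale used throughout, was 2.54 (SE 0.08) from NZB:NZB (77.9 ± 5.99) to NZB:C57 (458 ± 19.5). Tdo2, the main hepatic enzyme of the same step and a classical target of glucocorticoids, varied more between pools. It was at 1334, 1451 and 2227 in BL/6J:C57, at 1883, 1939 and 2073 in BL/6J:NZB, at 1485, 1614 and 1552 in NZB:NZB, and at 2381, 2563 and 2049 in NZB:C57. Each NZB:C57 liver exceeded each NZB:NZB liver, while replicate 3 of each BL/6J group lay within the NZB:C57 range. The difference was 0.58 (SE 0.16), and it missed the threshold without any 1 of 5 libraries (all 3 of NZB:NZB, NZB:C57 replicates 1 and 2), with no filter on low values, and on library totals, where it was 0.34.

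Afmid, the formamidase that frees kynurenine, did not pass. It measured 185, 172 and 159 in BL/6J:C57, then 181, 178 and 171 in BL/6J:NZB, then 140.4, 130.1 and 162 in NZB:NZB, and 169, 166 and 133 in NZB:C57. The NZB groups overlapped, with a log2 difference of 0.11 (SE 0.11). Kmo, whose product can go on to quinolinate, went the other way from Tdo2 and Kynu. It was at 548, 539.9 and 662 in BL/6J:C57, at 584, 502 and 499 in BL/6J:NZB, at 381, 354 and 373 in NZB:NZB, and at 238, 236 and 266 in NZB:C57. The nuclear genomes did not overlap, nor did the NZB groups, between which Kmo fell by 0.58 (SE 0.10).

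Kynu (kynureninase) was at 219.9, 213 and 241 in BL/6J:C57 livers, at 221, 211 and 213 in BL/6J:NZB, at 184, 154 and 185 in NZB:NZB, and at 286, 280.2 and 291 in NZB:C57. NZB:NZB was the lowest group and NZB:C57 the highest, with no overlap with any other group on either side. The log2 difference was 0.71 (SE 0.09). Haao, the dioxygenase that forms the quinolinate precursor, stood at 576, 482 and 419.6 in BL/6J:C57, at 387, 446 and 534 in BL/6J:NZB, at 287, 294 and 347 in NZB:NZB, and at 655, 640.0 and 624 in NZB:C57. Here too NZB:NZB was lowest and NZB:C57 highest, with BL/6J livers between them. Haao differed by 1.05 (SE 0.13), which made 2.07 times the mean of NZB:NZB.

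Acmsd, which draws the precursor away from NAD, was scarce and uneven. It stood at 25.1, 32.3 and 23.5 in BL/6J:C57, at 29.8, 24.5 and 17.1 in BL/6J:NZB, at 22.8, 11.99 and 17.7 in NZB:NZB, and at 13.4, 17.7 and 28.2 in NZB:C57. NZB:NZB lay below BL/6J:C57 and every other pair of groups overlapped. The difference of NZB:C57 from NZB:NZB was 0.15 (SE 0.27). Qprt, which commits quinolinate to NAD, showed the second largest difference. It was at 165, 176 and 153 in BL/6J:C57, at 133, 165 and 164 in BL/6J:NZB, at 60.7, 64.1 and 73.5 in NZB:NZB, and at 249.6, 255 and 245 in NZB:C57. The 3 levels did not overlap: NZB:NZB below, both BL/6J groups between, NZB:C57 above. The change was 1.91 (SE 0.10), or 3.78 times. Haao and Qprt, one after the other in the route, thus had NZB:NZB as their lowest and NZB:C57 as their highest group, while for Acmsd, at the branch between them, these 2 groups overlapped. This order was not particular to Haao and Qprt. The group means of Ido2, Tdo2 and Kynu had the same lowest and highest group. So did those of Amdhd1, Ftcd and Hgd, enzymes of histidine and tyrosine breakdown outside this route.

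Nadsyn1, the last enzyme to NAD, varied least. It was at 30.6, 28.0 and 31.8 in BL/6J:C57, at 24.3, 28.2 and 31.8 in BL/6J:NZB, at 26.2, 25.9 and 27.4 in NZB:NZB, and at 31.7, 26.4 and 29.0 in NZB:C57. NZB:NZB lay just below BL/6J:C57, and every other pair of groups overlapped. NZB:C57 differed from NZB:NZB by 0.12 (SE 0.11). Nampt, the enzyme of salvage, ran opposite to Qprt in the NZB livers. It stood at 53.6, 57.2 and 66.4 in BL/6J:C57, at 63.6, 62.9 and 66.3 in BL/6J:NZB, at 90.6, 87.2 and 90.1 in NZB:NZB, and at 52.4, 54.1 and 60.1 in NZB:C57. NZB:NZB stood above the other 9 livers, and Nampt fell by 0.68 (SE 0.09) from there to NZB:C57.

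Marker levels also differed between the NZB groups. The sum of 6 endothelial markers was 253 to 288 in NZB:NZB and 123 to 141 in NZB:C57 livers. That of 6 stellate cell markers was 296 to 321 and 107 to 167, so between these groups both sums were higher where Nampt was higher. Kupffer cell marker sums (7 genes) overlapped, at 231 to 309 and 251 to 359. Hepatocyte marker sums did not overlap (above) and were higher in NZB:C57. Among BL/6J livers, the mean of Nampt was 64.3 in BL/6J:NZB and 59.0 in BL/6J:C57. Stellate sums were 195 to 303 in BL/6J:NZB and 101 to 169 in BL/6J:C57, and endothelial sums 156 to 232 and 103 to 163. Nampt overlapped there, at 62.9 to 66.3 and 53.6 to 66.4. No marker of these lists was at 0 in all libraries of a group. The part of these markers in the differences was not tested. With library totals in place of the authors' scaling, the median of all genes in this comparison moved to -0.22. Ido2 (2.297), Qprt (1.66), Haao (0.81) and Kynu (0.47) were still higher, and Kmo (-0.82) and Nampt (-0.91) lower, while Afmid, Acmsd and Nadsyn1 changed sign without passing.

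With the BL/6J nucleus, the mtDNA made no difference that passed the threshold for any of the 10 genes. The count was 0 of 10, beside 0.0076% of all genes (1 of 13159), and 0 of the 10 had an unadjusted p under 0.05, as had 1284 of all genes. edgeR and DESeq2 also called 0 of 10. The log2 differences of BL/6J:NZB from BL/6J:C57 ran from -0.20 (SE 0.27) for Acmsd to 0.27 (SE 0.16) for Tdo2, with a median of -0.08. Ido2 was the 1 gene whose groups did not overlap (12.1% of all genes did not), at 0.16 (SE 0.08). Without BL/6J:C57 replicate 3, the pool with the high Tdo2, Tdo2 passed, at 0.50.

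**Figure D2:**
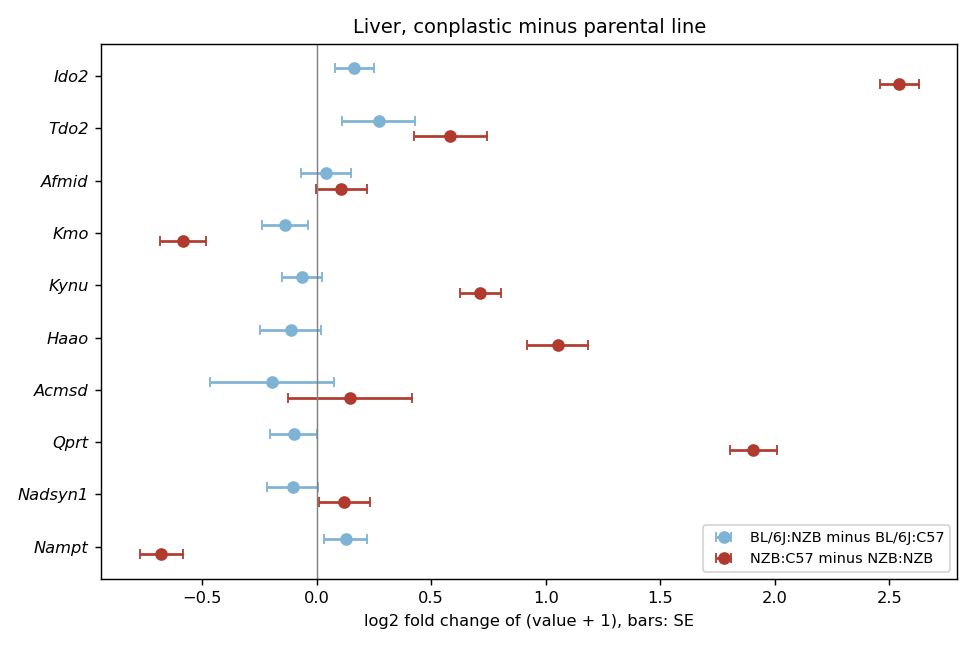
Log2 fold change of (value + 1) in liver, with its SE as bars, for BL/6J:NZB minus BL/6J:C57 (blue) and NZB:C57 minus NZB:NZB (red), 3 pools a group. The blue points lie from -0.20 to 0.27. The red points reach 2.54 for Ido2 and 1.91 for Qprt, and fall to -0.68 for Nampt and -0.58 for Kmo.

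The difference between these effects was fitted in the same model, as NZB minus C57 mtDNA on the NZB nucleus, minus the same on the BL/6J nucleus. It passed for 6 of 10 genes, beside 2.49% of all genes (0.669% higher, 1.82% lower), a share from which again nothing is read. It was -2.71 (SE 0.12) for Ido2, -1.81 (SE 0.15) for Qprt, -0.94 (SE 0.19) for Haao and -0.65 (SE 0.12) for Kynu, and it was 0.72 (SE 0.14) for Kmo and 0.55 (SE 0.13) for Nampt. Tdo2 had -0.85 (SE 0.23) and did not pass, though it did with DESeq2 (-0.84) and without BL/6J:C57 replicate 3 or NZB:C57 replicate 3. Nampt did not pass when any 1 of 9 libraries was left out. On the mtDNA labelled C57, Ido2 was at 458 ± 19.5 with the NZB nucleus and at 93.3 ± 4.08 with the BL/6J nucleus.

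Between nuclear genomes, averaged over both mtDNAs, 5 of 10 genes passed, beside 41.8% of all genes (20.5% higher, 21.3% lower with the NZB nucleus). The liver values chose the genes, so nothing is read from the counts of members in this comparison, averaged or split by mtDNA. Kmo was lower with the NZB nucleus, by -0.87 (SE 0.07), with no overlap between 6 and 6 libraries (19.1% of all genes had none). Ido2 (0.93, SE 0.06) and Nampt (0.19, SE 0.07) were higher, and Qprt (-0.30, SE 0.07) and Afmid (-0.22, SE 0.08) lower. These averages hide opposite differences. Ido2 was lower with the NZB nucleus on NZB mtDNA (-0.42, SE 0.08) and higher on C57 mtDNA (2.28, SE 0.08). Qprt likewise went from -1.21 to 0.60 (SE 0.10 for both), Haao from -0.55 to 0.39 (SE 0.13), Kynu from -0.30 to 0.35 (SE 0.09), and Tdo2 from -0.34, which did not pass, to 0.51 (SE 0.16). Kmo was lower on both, by -0.51 and -1.23 (SE 0.10). Nampt was higher on NZB mtDNA (0.47, SE 0.09), and was -0.08 on C57 mtDNA, which did not pass. On NZB mtDNA 1 gene was higher and 5 lower (24.9% of all genes passed, 12.9% higher and 11.9% lower), and on C57 mtDNA 5 were higher and 1 lower (27.9%, of which 13.1% higher and 14.8% lower). The calls of Afmid and Nampt in the average were lost without several single libraries, which left 3 of 10, and the call of Afmid also with edgeR, DESeq2 and library totals. Tdo2 passed without BL/6J:C57 replicate 3, at 0.20. Acmsd passed as lower without BL/6J:NZB replicate 3 (-0.56), NZB:NZB replicate 1 (-0.56) or NZB:C57 replicate 3 (-0.60). It was at -0.43 on NZB mtDNA and -0.48 on C57 mtDNA (SE 0.27 for both), which did not pass.

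**Figure D3:**
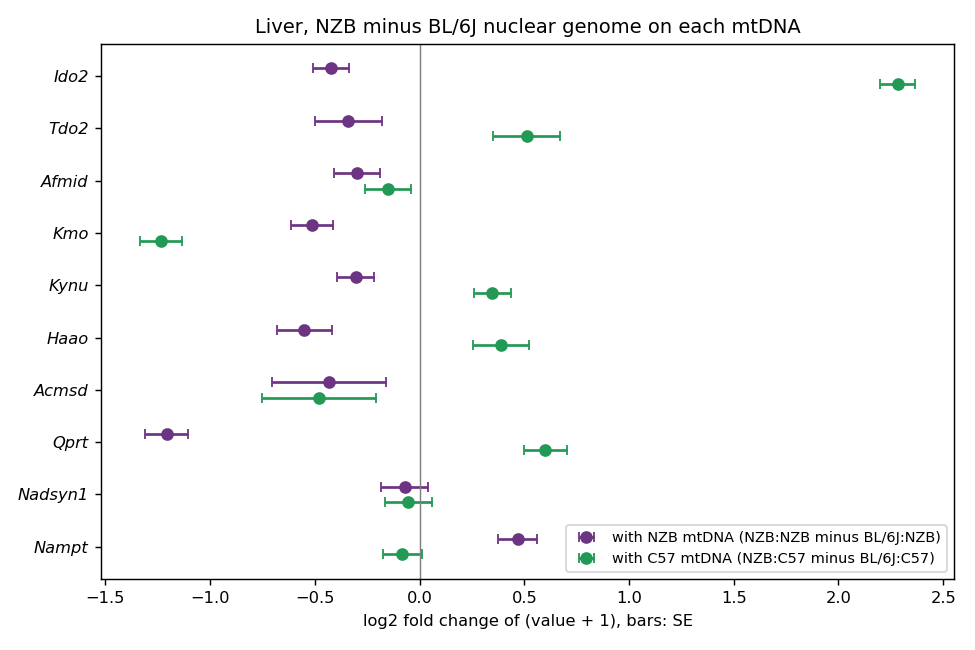
Log2 fold change of (value + 1) in liver, NZB minus BL/6J nucleus, with its SE as bars, on NZB mtDNA (purple) and on C57 mtDNA (green), 3 pools a group. Ido2, Tdo2, Kynu, Haao and Qprt lie below 0 on NZB mtDNA and above 0 on C57 mtDNA, and Kmo lies below 0 on both, at -0.51 and -1.23.

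Heart libraries held few reads of most of these genes. Ido2 had 0 to 6 reads a library, Kynu 0 to 5, Acmsd 0 to 3, Qprt 0 to 2 and Haao 0 to 26. Ido2 had 0 reads in 6 of 12 hearts, in which a count of 0 allows a value of up to 0.255 to 0.662 (3 reads, for counting error only). Tdo2 (1 to 40 reads) and Kmo (0 to 15) passed the filter on low values only just, at no more than 2.87 and 1.11. The highest Tdo2 and Haao (2.87 and 1.86) were in BL/6J:NZB replicate 3, whose hepatocyte marker sum was 192.6, against 14.8 to 92.9 in the other 11 hearts. The high Ido2 of NZB:C57 livers had no counterpart in hearts that these reads could show: 2 of the 3 NZB:C57 hearts had none and the third had 6 (0.495). The genes with the most reads in heart were Nampt, at 31.2 ± 6.14 per kilobase against 13.3 ± 2.82 in liver, Afmid (1.78 ± 0.346 against 45.8 ± 5.22) and Nadsyn1 (1.11 ± 0.170 against 8.60 ± 0.773). Gm20708, which overlaps Afmid, reached 4.29 in BL/6J:NZB replicate 2, where Afmid was at 4.13, and was at 0 to 2.83 in the other 11 hearts. The mean of Nampt in heart was 2.35 times that in liver, and in liver Afmid was 25.8 times and Nadsyn1 7.75 times its heart level. Joint or separate scaling of the tissues was not given in the sources used here.

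Nampt was the 1 gene of the 5 tested in heart (Nampt, Nadsyn1, Afmid, Kmo, Tdo2) that changed with mtDNA. It was at 183, 180.2 and 161 in BL/6J:C57 hearts, at 185, 169 and 168 in BL/6J:NZB, at 113, 100.2 and 109 in NZB:NZB, and at 174, 171 and 177 in NZB:C57. NZB:NZB stood below the other 9 hearts, whose groups overlapped. From NZB:NZB (107 ± 6.58) to NZB:C57 (174 ± 2.82) it rose by 0.69 (SE 0.07, adjusted p = 9.39e-07, limma, higher in 3 of 3 pools), but by -0.00505 on library totals, where the median of all genes was -0.65, so that Nampt lay 0.65 above that median. Of all 13803 genes tested in heart, 15.9% passed in this comparison (13% higher, 2.89% lower), and 28.7% had groups without overlap. In liver the same comparison went the other way for Nampt (-0.68). NZB:C57 hearts also had the high cardiomyocyte marker sums given above, endothelial sums of 998 to 1136 (526 to 662 in other hearts) and sums of the stellate cell list, which holds collagen genes of fibroblasts, of 3963 to 4057 (1734 to 2751). Their part in the change was not tested.

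Afmid in heart was at 7.29, 7.31 and 5.36 in BL/6J:C57, at 4.17, 4.13 and 6.59 in BL/6J:NZB, at 6.35, 7.66 and 6.76 in NZB:NZB, and at 6.37, 7.68 and 5.74 in NZB:C57. Nadsyn1 was at 4.01, 4.13 and 2.77, at 3.43, 3.97 and 4.66, at 3.49, 4.002 and 3.38, and at 4.08, 3.22 and 2.87 in the same order. Both overlapped in all groups, and their log2 differences of NZB:C57 from NZB:NZB were -0.07 (SE 0.17, adjusted p = 0.888, limma) and -0.08 (SE 0.17, adjusted p = 0.846, limma). On library totals both passed as lower (-0.69 and -0.65), which is near the shifted median of -0.65. In BL/6J hearts 0 of 5 genes passed, beside 0.935% of all genes (0.427% higher, 0.507% lower), and 2 of 5 had an unadjusted p under 0.05. These were Tdo2 (0.79, SE 0.33, adjusted p = 0.233, limma), whose groups did not overlap (22.1% of all genes had none) and whose highest value was the 40 reads of BL/6J:NZB replicate 3, and Afmid (-0.37, SE 0.17, adjusted p = 0.29, limma). edgeR and DESeq2 called 0 of 5 as well.

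Between nuclear genomes in heart, Nampt fell by 0.34 with the NZB nucleus (SE 0.05, adjusted p = 2.62e-05, limma), with 45.1% of all genes passing (26.7% higher, 18.4% lower). The groups overlapped for all 5 members, while 18.7% of all genes had none. Split by mtDNA, Nampt on NZB mtDNA was at -0.69 (SE 0.07, adjusted p = 1.42e-06, limma), with 29.1% of all genes passing, and on C57 mtDNA at -0.00173 (SE 0.07, adjusted p = 0.989, limma), with 35.2%. The difference of these was not tested. On the authors' scaling NZB:NZB thus stands apart for Nampt in both tissues, at the top in liver (89.3 ± 1.85) and at the bottom in heart (107 ± 6.58). On library totals heart Nampt was at -0.60 between nuclear genomes (adjusted p = 4.83e-08, limma), where the median of all genes was -0.20. There it differed by -0.00505 between the NZB groups, so NZB:NZB did not stand apart from NZB:C57 in heart. On the authors' scaling the other 4 genes did not pass. Kmo came nearest (-0.40, SE 0.17, adjusted p = 0.0741, limma) and passed without NZB:NZB replicate 3, the highest of its group at 1.01 (6 reads), and on library totals. Afmid passed without BL/6J:NZB replicate 3, at 0.30.

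**Figure D4:**
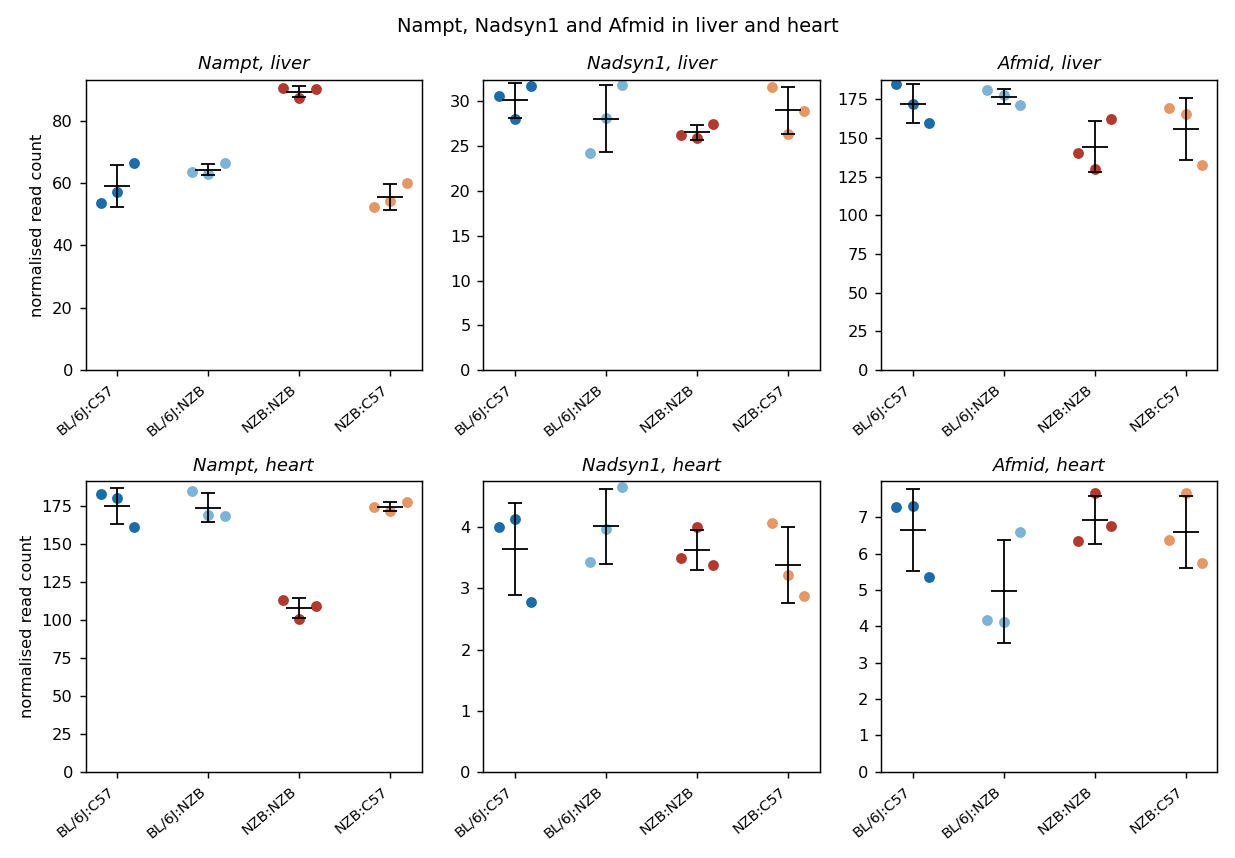
Normalised read count (vertical axes, linear, from 0, differing by panel) of Nampt, Nadsyn1 and Afmid in liver (top) and heart (bottom) by genotype, with mean and SD of 3 pools. NZB:NZB is the highest group for Nampt in liver, near 89.3, and the lowest in heart, near 107. On library totals the heart difference between the NZB groups was -0.00505.

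Around the 10 genes, 74 further names in 5 lists were examined. The lists were chosen with earlier results of these data known, which limits what their counts and p-values show. Of these, 68 were in the table, 66 were tested in liver and 55 in heart. Between NZB:C57 and NZB:NZB livers 13 of 66 passed, 9 higher and 4 lower, beside 8.09% of all genes (3.65% higher, 4.44% lower). The median was -0.000349 over the 66 genes. On library totals 24 passed, 7 higher and 17 lower.

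In NZB:C57 livers 3 of 18 other tryptophan genes were higher, while 2 were lower (median of the list -0.05). Of all genes 3.65% were higher and 4.44% lower. Aldh8a1, which oxidises the intermediate made by Acmsd, rose from 358 ± 13.3 to 695 ± 8.92 (0.95, SE 0.09, adjusted p = 8.09e-06, limma). Aadat, an aminotransferase that makes kynurenic acid, rose from 109.7 ± 12.2 to 270.2 ± 52.9 (1.28, SE 0.17, adjusted p = 0.000187, limma). Maob, a monoamine oxidase, fell from 295 ± 5.66 to 178 ± 13.04 (-0.73, SE 0.09, adjusted p = 0.00013, limma). The other 2 that passed, named as part of a small count, were the aromatic amino acid transporter Slc16a10 (0.51, and 0.27 without passing on library totals) and the indolethylamine methyltransferase Inmt (-1.47).

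Of 18 other amino acid breakdown enzymes of liver, 6 were higher and none was lower (median 0.22), beside 3.65% and 4.44% of all genes. Amdhd1 and Ftcd, which act in succession on histidine, rose from 198 ± 21.1 to 688 ± 28.7 (1.79, SE 0.10, adjusted p = 3.26e-08, limma) and from 252 ± 10.4 to 1046 ± 73.4 (2.05, SE 0.12, adjusted p = 6.59e-08, limma). Hgd, of tyrosine breakdown, rose from 440.5 ± 18.9 to 1266 ± 78.3 (1.52, SE 0.08, adjusted p = 3.49e-08, limma). Hal (0.87), Aass (1.33) and Hpd (0.48) were the other 3, of which Hpd missed the threshold on library totals and without any 1 of 4 libraries (replicates 1 and 2 of either group).

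None of 10 other genes of NAD synthesis and nicotinamide handling passed in limma, and 0 had an unadjusted p under 0.05. Of 13 genes whose products consume NAD, Cd38, a glycohydrolase, fell from 13.5 ± 1.96 to 7.15 ± 1.64 (-0.84, SE 0.21, adjusted p = 0.0271, limma), and no sirtuin or poly-ADP-ribose polymerase of the list passed. Of 7 regulators, Hnf4a, a nuclear receptor of hepatocytes, fell by 0.68 (SE 0.17, adjusted p = 0.02, limma). Cd38 missed the threshold without replicate 2 or 3 of either group, with no filter on low values and in edgeR, and Hnf4a without NZB:NZB replicate 2 or 3 or NZB:C57 replicate 1 or 2. In BL/6J livers 0 of 66 passed in limma, edgeR and DESeq2, 8 had an unadjusted p under 0.05, and 2 passed without BL/6J:C57 replicate 3.

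**Figure D5:**
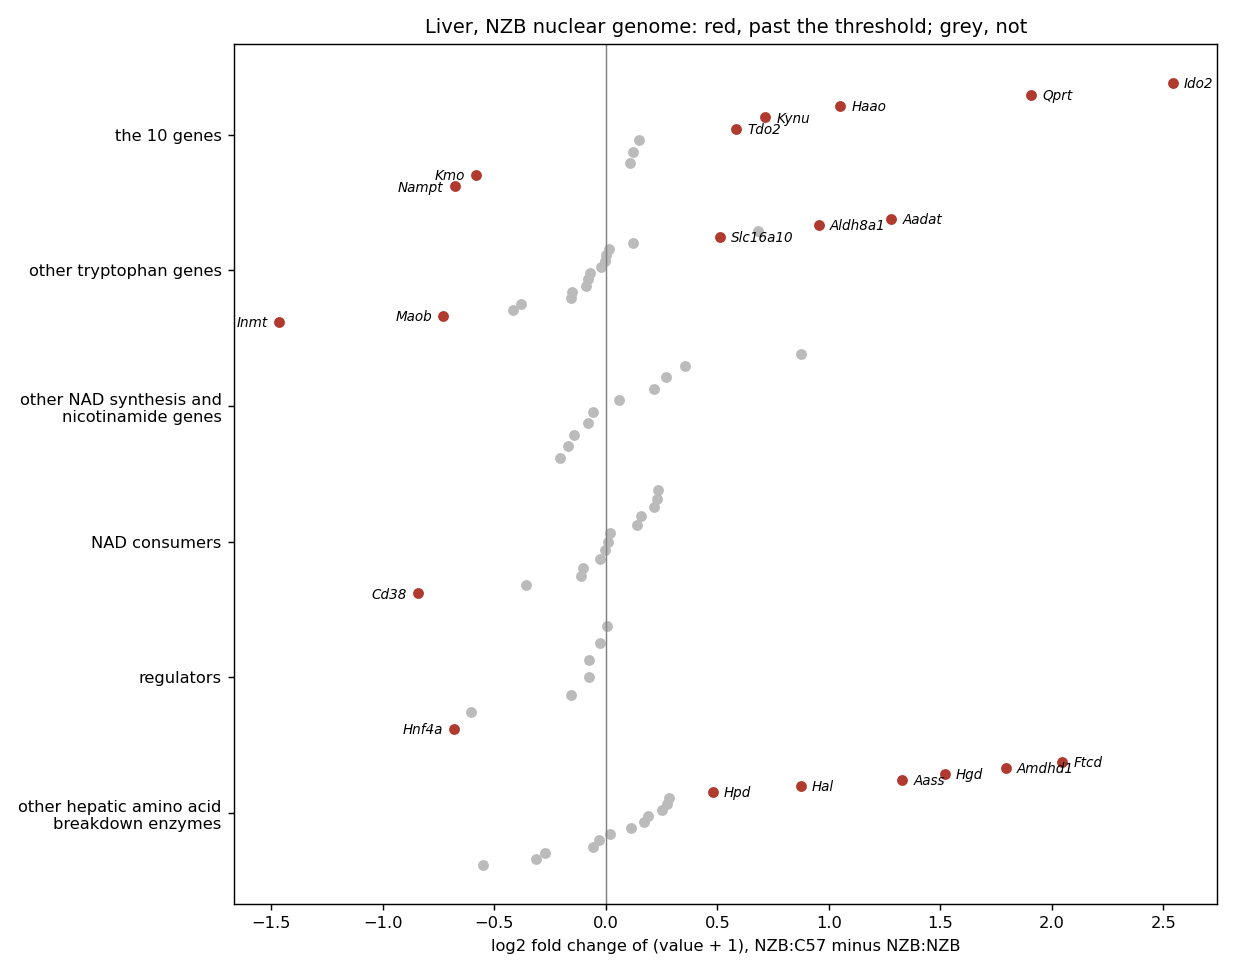
Log2 fold change of (value + 1) in liver, NZB:C57 minus NZB:NZB, for the 10 genes and 5 lists of other pathway genes. Each point is a gene, red and named where it passed the threshold. None of the other NAD synthesis genes is red, and all 6 red amino acid breakdown enzymes lie above 0. On library totals 7 of the other pathway genes were higher and 17 lower, and of all 13159 genes 355 were higher and 2562 lower.

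Between nuclear genomes in liver, 35 of 66 further genes passed, 11 higher and 24 lower with the NZB nucleus. Of all genes 41.8% passed (20.5% higher, 21.3% lower). By list, 12 of 18 amino acid breakdown enzymes, 6 of 18 tryptophan genes, 6 of 13 NAD consumers and 5 of 7 regulators passed. Of the 10 other NAD genes, 1 was higher and 5 were lower (median -0.42). Nothing is read from these counts. Nnmt, which methylates nicotinamide and so removes it from salvage, was at 76.7, 119 and 64.0 in BL/6J:C57 livers and 52.9, 35.5 and 39.0 in BL/6J:NZB, against 0, 0.0983 and 0.442 in NZB:NZB and 0, 0 and 8.73 in NZB:C57 (adjusted p = 7.06e-07, limma). The last pool held nearly all of the Nnmt of the NZB livers. In heart, at low values, Nnmt passed as higher with the NZB nucleus (0.53). Its heart means were 1.09 in BL/6J:C57, 1.24 in BL/6J:NZB, 2.01 in NZB:NZB and 2.24 in NZB:C57. Nmnat3, a mitochondrial enzyme that joins the mononucleotide to ATP, was lower with the NZB nucleus in liver (-1.62, SE 0.14, adjusted p = 7.85e-07, limma) and in heart (-1.52, SE 0.11, adjusted p = 5.11e-09, limma). Its liver means were 8.95 and 8.61 in the BL/6J groups and 2.12 and 2.24 in the NZB groups. Aox1, an aldehyde oxidase that acts on methylated nicotinamide, was lower too, by -0.83 (SE 0.11, adjusted p = 3.2e-05, limma) in liver and -0.89 (SE 0.08, adjusted p = 4.61e-08, limma) in heart. Nadk, the NAD kinase, was the 1 other NAD gene that was higher in liver (0.40).

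In heart, 7 of 55 further genes were higher in NZB:C57 than in NZB:NZB and none was lower, beside 15.9% of all genes. On library totals 2 were higher and 42 lower, and of all 13803 genes 803 were higher and 10233 lower. Nmrk2, the nicotinamide riboside kinase of muscle, went from 10.6 ± 1.28 to 26.7 ± 4.96 (1.25, SE 0.17, adjusted p = 1.91e-05, limma). Its level is uncertain, as 19.1% of its words also occur elsewhere. Cd38 went from 12.8 ± 0.629 to 18.1 ± 0.647 (0.47, SE 0.10, adjusted p = 0.00295, limma), while in liver it fell. The others were Inmt (1.26), Maob (0.71), Kyat3 (0.35), Got1 (0.53) and Fah (0.50). On library totals Nmrk2 (0.59) and Inmt (0.85) were still higher, Maob (0.038) did not pass, and the rest turned negative, at -0.20 for Cd38 and -0.16 for Fah, which did not pass, and at -0.17 for Got1 and -0.32 for Kyat3, which passed as lower. In BL/6J hearts 0 of 55 passed in limma (12 with an unadjusted p under 0.05), 1 in edgeR and 2 in DESeq2. Between nuclear genomes 32 of 55 passed, 8 higher and 24 lower, beside 45.1% of all genes, among them Maob (-1.17, SE 0.09, adjusted p = 1.91e-08, limma) and Ddc, the aromatic amino acid decarboxylase (-1.56, SE 0.14, adjusted p = 6.04e-08, limma).

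The genes whose liver pattern was most like that of each member were sought among 8504 genes with a mean of at least 10, by Pearson's r of log2(value + 1) over 12 livers. The points share 4 genotypes, so r mainly follows the group levels and carries no p. Ido2 was most like Ugt1a1, the bilirubin glucuronosyltransferase (r = 0.99), and Acat3 (0.99). Kynu and Qprt had the same first gene, the complement component C9 (r = 0.97 and 0.96). Haao was most like the glucagon receptor Gcgr (0.98) and Hpd (0.96), Kmo like Apol9b (0.98) and the peroxisomal oxidase Acox2 (0.97), and Tdo2 like Ugt3a1 (0.95) and the hepatic uptake transporter Slco1b2 (0.91). Nampt was most like the retinol dehydrogenase Rdh16 (0.95) and the copper transporter Atp7b (0.92). The other 3 genes had lower first matches: Sirt7 for Afmid (0.90), Gm49342 for Acmsd (0.90) and Selenoo for Nadsyn1 (0.93).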

How the data were processed

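Liver and left ventricle RNA of 4 genotypes was sequenced on the Illumina Genome Analyzer IIx from 3 pools a group, with RNA integrity of at least 7.9, per the labels' protocols. Tools and build per the submitters' processing notes, where no role or order is given, were GRCm38, Bowtie2 2.0.6, RSEM 1.2.3, cutadapt 1.2.1 and an edgeR of unnamed version. The deposited unit, per the file headers, is a normalised signal that the authors computed. Each column had 1 constant of which 100% of its values were whole multiples (to 0.01 reads), which gave back whole reads. All columns matched a sample, with 0 left over. limma 3.58.1 (trend, R 4.3.3) was fitted to log2(value + 1) over the 12 libraries of a tissue, for genes that reached a value of 1 in 3 or more libraries (13159 in liver, 13803 in heart), so a fold change understates that of low genes. Adjusted p-values are Benjamini-Hochberg over all genes tested, threshold 0.05. edgeR 4.0.16 and DESeq2 1.42.0 on recovered reads, library totals, other filters and left-out libraries were alternatives. The fit was tested on simulated data.

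The 10 genes and the 5 lists were chosen with earlier results of these data known. Of each list, up to 3 genes per comparison by smallest adjusted p are named with their values, and 2 genes most like each member, and others are named where a count was small. The uniqueness of a gene was judged by how many of its 31-base words are found in another annotated gene. Ido1, Tph1, Tph2, Slc6a19, Nmnat2 and Sarm1, names of the lists, were not analysed here. One further gene of the regulator list is not reported here and is in none of the counts of the lists.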

Additional observations from a re-analysis of the deposited data

Results flagged for a closer look

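In liver, the effect of mtDNA (NZB minus C57) differed between the nuclear genomes, by the test of that difference in limma, for 9 of 66 further pathway genes, beside 2.49% of all genes. Among the amino acid breakdown enzymes it was -1.97 for Ftcd (adjusted p = 6.84e-06, limma), -1.71 for Amdhd1 (adjusted p = 4.21e-06, limma), -1.50 for Hgd (adjusted p = 3.57e-06, limma), -1.36 for Aass (adjusted p = 4.34e-05, limma) and -0.92 for Hal (adjusted p = 0.00106, limma). Among the others it was -1.19 for Aadat (adjusted p = 0.0113, limma), -0.64 for Slc16a10 (adjusted p = 0.0265, limma, past the threshold in 9 of 18 alternatives), -0.93 for Aldh8a1 (adjusted p = 0.000541, limma) and 0.70 for Maob (adjusted p = 0.00659, limma). The lists of these genes were chosen with earlier results of these data known, which limits what the p-values show. The members were chosen with these liver values in view, so for them the fitted difference is a description with no test. It was -2.71 for Ido2, -1.81 for Qprt, -0.94 for Haao, -0.65 for Kynu, 0.72 for Kmo and 0.55 for Nampt on the log2 scale.

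Between NZB:C57 and NZB:NZB, 4 genes went opposite ways in the tissues. Nampt was at -0.68 in liver and 0.69 in heart, with no overlap between pools in either. Cd38 was at -0.84 and 0.47, Inmt at -1.47 and 1.26, and Maob at -0.73 and 0.71. The difference between tissues was not tested. On library totals the heart value was -0.00505 for Nampt, -0.20 for Cd38 and 0.038 for Maob, none of them past the threshold, and 0.85 for Inmt.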

How the results depend on the processing

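The 3 pools a group and, in heart, the 0 to 40 reads behind most members limit the precision. Over the alternatives run, the members' liver fold changes changed sign in 26 of 640 cases, of which 3 were of a value past the threshold and are given below. Apart from these 3, 605 moved by less than the spread between pools and 32 by more. In heart, 209 kept direction and side of the threshold, 15 changed sign, 5 newly passed and 1 was lost with its sign kept. Among the 15 was Nampt between the NZB groups on library totals, which also lost its call. Counts of members that passed ranged, with 1 library left out, from 6 to 7 for NZB:C57 livers, 3 to 6 for the nuclear genome in liver, 5 to 7 for the difference of effects, 0 to 1 for BL/6J livers, 1 to 2 for the nuclear genome in heart, 1 to 1 for NZB:C57 hearts and 0 to 0 for BL/6J hearts. For the further pathway genes the ranges were 10 to 14, 31 to 36, 8 to 11, 0 to 2, 28 to 34, 6 to 8 and 0 to 1, in the same order.

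On library totals, 2 members passed in NZB:C57 hearts and 2 for the nuclear genome in heart, 44 further genes passed in NZB:C57 hearts and 24 in NZB:C57 livers. Of all genes, 803 were then higher and 10233 lower of 13803 in NZB:C57 hearts. For the nuclear genome in heart 2206 were higher and 6649 lower, and in NZB:C57 livers 355 were higher and 2562 lower of 13159. Nothing is read from these counts of members and further genes. For the interaction in liver the median of all genes moved to 0.15. In BL/6J hearts, edgeR called 1 and DESeq2 2 further genes. The nuclear comparison within each mtDNA was chosen after seeing the data. On NZB mtDNA it gave 22 further genes in liver and 19 in heart, and the liver values of Ido2, Tdo2 and Kynu turned to -0.42, -0.34 and -0.30 and the heart value of Tdo2 to -0.14. On C57 mtDNA it gave 0 members in heart, and Qprt turned to 0.60, Haao to 0.39 and Nampt to -0.083 in liver and Afmid to -0.00814 in heart. These turns come from the groups used, and the cause of the others was not tested.

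Several heart values near 0 changed sign when 1 library was left out. In BL/6J hearts Kmo then ranged from -0.11 to 0.033, with 0.011 without BL/6J:NZB replicate 1, Nadsyn1 from -0.022 to 0.21 and Nampt from -0.065 to 0.026, with 4 of 6 above 0, and Nampt was 0.0198 on library totals. Between NZB:C57 and NZB:NZB hearts Tdo2 ranged from -0.45 to 0.049, Afmid from -0.17 to 0.016, Kmo from -0.50 to 0.00116 and Nadsyn1 from -0.19 to 0.00285, and Nampt was -0.00505 on library totals.

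Pools share replicate numbers. Within a tissue and nuclear genome, the deviations of same-numbered parental and conplastic pools correlated at -0.03 to 0.13. Of these, 6 of 12 correlated best with their own number, among them each of the BL/6J heart pools. Liver pools were not compared with heart pools of the same number, so what a number stands for was not settled. With the replicate number as a block, members passed as before in all comparisons: 7 in NZB:C57 livers, 5 for the nuclear genome in liver, 6 for the difference of effects, 0 in BL/6J livers, 1 in NZB:C57 hearts, 1 for the nuclear genome in heart and 0 in BL/6J hearts. Under the block 14 further genes passed in NZB:C57 livers.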
